A study of Mus musculus with 6 samples.

Results

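The Hox genes of the embryonic mouse skin were described as a family, across 3 libraries of Tie1 knockout skin and 3 libraries of control skin. Members were the genes whose symbol consists of Hox, a cluster letter from a to d and a paralog number, which gave 39 of the 19131 genes in the files. All 6 libraries were bulk RNA-seq libraries of skin from embryos at embryonic day 17.5 on the C57BL/6N background, and the groups differed by the label knockout or control of Tie1, a receptor tyrosine kinase of endothelial cells. The letters ECD stand next to Tie1 in every sample title, without an explanation, and were not interpreted. The cells in which Tie1 was deleted, the body site of the skin and the number of embryos or litters behind a library are not stated in the labels, so p-values measure only the spread between these libraries, which may be technical.

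Hox genes encode homeodomain transcription factors that lie in 4 clusters. Within a cluster the genes are numbered from 1 to 13 by their order, and genes of the same number in different clusters are called paralogs. In the embryo, low-numbered genes are switched on early and from the hindbrain and neck backwards, and high-numbered genes later and nearer the tail, or towards the ends of the limbs. Dermal fibroblasts keep much of this pattern, so that skin of different body sites differs in its Hox genes. Hoxc13 has a separate role, since it is expressed in the cells that form the hair shaft and controls hair keratin genes.

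In the RefSeq gene table for GRCm38.p6, all 39 genes were matched by their NCBI gene number. Cluster a lies on chromosome 6, cluster b on chromosome 11, cluster c on chromosome 15 and cluster d on chromosome 2. The spans of 10 genes overlapped that of another Hox gene (Hoxa3 with Hoxa4, Hoxa5 and Hoxa6, Hoxb3 with Hoxb4, Hoxd3 with Hoxd4, and Hoxd10 with Hoxd11), and the split of reads between these genes is uncertain. The read counts are estimates, and those of Hoxb9, Hoxc6 and Hoxc8, which overlap no other Hox gene, were not all whole numbers. The sources used here do not give whether the counting used strand, so a Hox gene and an antisense transcript over it cannot be told apart.

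Clusters a, b and c also carry miR-196, a microRNA known to act on Hox transcripts. The mature forms are shown because they come from inside the stretch of the clusters in which the libraries differed most, and because their known target Hoxb8 was among the measured genes. In the RefSeq table for GRCm38.p6, miR-196b-5p lies at chr6:52230129-52230150 on the minus strand, between Hoxa9 and Hoxa10. The 2 genes of miR-196a-5p lie at chr11:96265187-96265208 on the plus strand, beside Hoxb9, and at chr15:102973365-102973386 on the plus strand, between Hoxc10 and Hoxc9. Capitals mark the seed, bases 2 to 8, which both forms share.
miR-196b-5p: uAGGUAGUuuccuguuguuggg
miR-196a-5p: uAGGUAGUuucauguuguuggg
The seed match ACTACCT occurred in the 3′ untranslated region, on the sense strand, of 8 of the 39 Hox genes (20.5%), compared with 1273 of 20940 genes (6.08%). The 8 genes were Hoxa4, Hoxa5, Hoxa7, Hoxa9, Hoxb1, Hoxb6, Hoxb7 and Hoxc8, and Hoxa7 held 4 matches. Hoxb8 has no such match, but the stretch shown next, which starts at base 418 of its 845-base 3′ untranslated region, pairs with 21 of the 22 bases of miR-196a-5p. It was the only 1 of 20822 genes with that many paired bases. Capitals mark the paired bases, with only A-U and G-C pairs counted. The g in lower case lies opposite a U.
Hoxb8 site: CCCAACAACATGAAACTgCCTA
The microRNAs themselves were not measured. Of the 7 tested Hox genes with a seed match, 4 had a log2 fold change (knockout over control) above 0 and the median was 0.02. Of the 24 without one, 16 were above 0 and the median was 0.06.

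The libraries held between 19826856 and 20591164 reads, and 3 reads corresponded to between 0.147 and 0.155 CPM. CPM are read counts scaled to a common library size, here with the TMM correction. Hox genes took between 0.0478 and 0.0567% of the reads. Tie1 was at 4.33, 2.63 and 2.26 CPM in knockouts 1, 2 and 3 and at 58.6, 50.7 and 59.98 CPM in controls 1, 2 and 3, and fell by 4.2 on the log2 scale (SE 0.23, adjusted p = 0.00387, edgeR). All 3 libraries labelled knockout were thus far below all 3 controls. Markers of the labelled tissue were abundant, with summed levels of 7 keratinocyte markers between 18100 and 34250 CPM and of 8 dermal fibroblast markers between 21570 and 26410 CPM, and the samples also held skeletal muscle RNA (8 markers, between 8637 and 13980 CPM). Knockout 1 and control 1 stood apart from the other libraries over all genes with enough reads. For each pair of libraries, the mean squared difference was divided by the variance that counting gives. This ratio was 38 to 52.8 for pairs with knockout 1 and 31.9 to 41.4 for pairs with control 1. It was 9.96 to 20.5 among the other libraries. Knockout 1 and control 1 were also set apart in many hair follicle genes, above all in keratins of the inner root sheath. The mean log2 CPM of the 12 tested hair follicle markers was 1.97 in knockout 1 and 2.43 in control 1, and between 3.94 and 4.80 in the other libraries. In summed CPM of this list control 1 was again lowest, at 225.4, but knockout 1, at 334.1, lay within the others (between 308.0 and 432.2). Gsdma alone gave 186 CPM of the sum in knockout 1. In bulk tissue, fewer cells of a type and less RNA per cell cannot be told apart.

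Skin of both groups expressed the Hox genes of paralogs 1 to 10 apart from Hoxb1, and little of paralogs 11 and 12. For a gene to be tested it had to pass a filter for low counts, and 31 of the 39 Hox genes did. Of the 8 that did not, Hoxa13 had 0 reads in every library, which allows up to 0.155 CPM in a library (3 reads, counting error only). Hoxc12, Hoxd12 and Hoxd13 had at most 2 reads in a library. Hoxb1, which patterns the hindbrain, had between 0 and 6. Hoxb13, a gene of the tail end of the body, had 1, 2 and 1 reads in the knockouts and 0 in every control. Hoxc11 had 2, 7 and 2 reads in the knockouts and 2, 0 and 0 in the controls. Hoxd11, a limb gene whose span overlaps Hoxd10, had an estimated 12.4, 8.08 and 6.07 reads in the knockouts and 6.55, 3.03 and 1.01 in the controls.

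**Figure D1:**
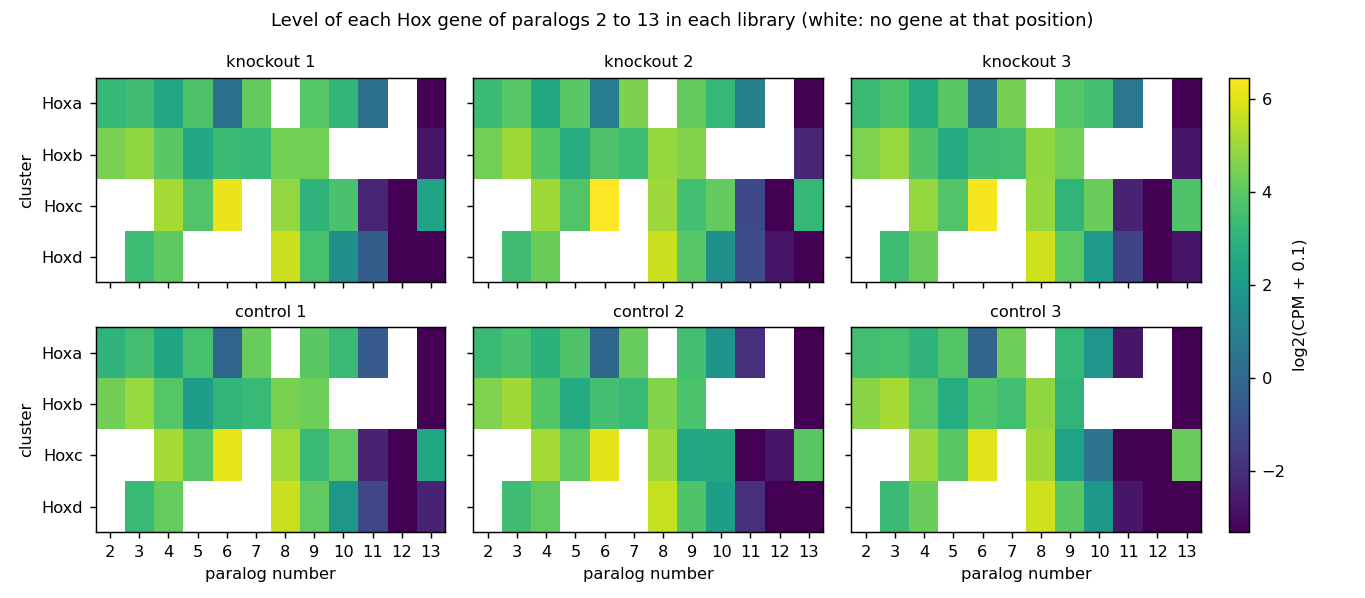
Level of each of the 36 Hox genes of paralogs 2 to 13 in each library. Rows are the 4 clusters, columns the paralog numbers, and colour is log2(CPM + 0.1), with white where a cluster has no gene. Paralogs 2 to 8 look alike in all 6 panels, Hoxc10 and Hoxa10 darken in controls 2 and 3, and of paralogs 12 and 13 only Hoxc13 stands clear of the floor.

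Between genes, levels can be compared only per length, here as CPM per kilobase of the longest annotated transcript. On that scale Hoxc6, a gene of the thoracic region, was highest at 45.8 ± 5.77 (SD over 6 libraries). Hoxd8 followed at 19.4 ± 0.81, then Hoxc4 at 15.8 ± 1.01 and Hoxc8 at 14.2 ± 0.93. Hoxc6, Hoxd8 and Hoxc8 were each separated from the next gene by more than their SDs, and Hoxc4 was not separated from Hoxc8. Hoxb3 at 9.92 ± 0.71, Hoxb8 at 9.77 ± 1.38 and Hoxa7 at 9.60 ± 1.10 CPM per kilobase could not be ordered. The 10 highest genes were all of paralogs 2 to 8.

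The comparison of knockout with control called no Hox gene. Called means an adjusted p under 0.05 in edgeR's quasi-likelihood test over 15035 genes, of which 24 (0.16%) were called. At an unadjusted p under 0.05 there were 3 Hox genes of 31 (9.68%), all higher in knockout, namely Hoxa6, Hoxa11 and Hoxc6. The same threshold took 7.42% of all genes tested, and 4.08% in the higher direction. DESeq2 and limma-voom called no Hox gene either, with 4 and 5 at an unadjusted p under 0.05. Over all 15035 genes, 1008 and 1119 passed that threshold, compared with 1116 in edgeR. The fitted change was above 0 for 20 of 31 Hox genes (64.5%), compared with 51.2% of all genes, and the median log2 fold change was 0.03 for the Hox genes and 0.00379 for all genes. Groups did not overlap for 5 Hox genes, with knockout above for Hoxa6, Hoxa11, Hoxb9 and Hoxc6 and below for Hoxc5. Among all genes tested, groups did not overlap in 13.8%, with knockout above in 7.02% and below in 6.78%. The summed level of all Hox genes was 537.6 ± 37.8 CPM (SD, n = 3) in the knockouts and 501.9 ± 5.69 CPM in the controls.

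Among paralogs 1 to 4, which are the genes of the hindbrain and neck, the summed level varied little and was lowest in control 1. Paralog 2 alone summed to 31.3, 30.6 and 33.7 CPM in the knockouts and 28.2, 33.8 and 37.7 CPM in the controls. The summed level of paralogs 1 to 4 was 166.6, 174.9 and 170.0 CPM in the knockouts and 163.2, 176.3 and 182.3 CPM in the controls. Of the 11 tested genes, 6 were above and 5 below 0 on the log2 fold change scale, the lowest being Hoxa4 at -0.22, with a median of 0.00251. For each gene the highest library was between 1.15 and 1.67 times the lowest.

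Hoxb3, which acts in the hindbrain and the pharyngeal arches, was at 28.5, 32.9 and 30.3 CPM in the knockouts and 30.5, 32.9 and 34.7 CPM in the controls. The groups overlapped, and the log2 fold change was -0.10 (SE 0.09, adjusted p = 0.831). Hoxc4, a gene of the neck region, was at 35.5, 32.9 and 30.1 CPM in the knockouts and 35.3, 35.0 and 32.3 CPM in the controls, again overlapping (log2 fold change -0.06, SE 0.08, adjusted p = 0.900). Its paralog Hoxd4 was at 16.2, 19.1 and 18.5 CPM in the knockouts and 17.4, 16.7 and 18.5 CPM in the controls. The 2 groups had near-equal means (18.0 ± 1.52 and 17.5 ± 0.87 CPM, SD, n = 3; adjusted p = 0.953, edgeR).

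The genes of paralogs 5 to 8, which pattern the lower neck and the chest, made up between 48.2 and 51.3% of the Hox total in every library. Their summed level was 242.1, 284.1 and 272.1 CPM in the knockouts and 242.4, 246.3 and 260.1 CPM in the controls. Of the 11 tested genes, 8 were above 0 and 3 below, with a median log2 fold change of 0.10. The 3 genes whose groups did not overlap were Hoxa6, Hoxc5 and Hoxc6.

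Hoxc6 was at 71.1, 87.4 and 79.1 CPM in the knockouts and 67.4, 65.5 and 63.9 CPM in the controls. Every knockout library lay above every control, but the lowest knockout and the highest control were close. The log2 fold change was 0.27 (SE 0.08, unadjusted p = 0.014, adjusted p = 0.458, edgeR), and it lay between 0.19 and 0.34 when each library was left out in turn. Hoxa6 had few reads, 85 in the knockouts and 50 in the controls. It was at 1.08, 1.69 and 1.47 CPM in the knockouts and 0.789, 0.891 and 0.806 CPM in the controls, with no overlap. The log2 fold change was 0.78 (SE 0.27, unadjusted p = 0.022, adjusted p = 0.540), and the ratio of pooled reads was 1.72 (95% exact interval 1.2 to 2.49, counting error only). Since Hoxa6 lies within the span of Hoxa3, its reads may be shared with it. The estimated count of Hoxa6 was not a whole number only in control 3 (16.33 reads), and that of Hoxa3 was whole in every library. Hoxc5 was at 13.9, 13.6 and 13.8 CPM in the knockouts and 14.998, 16.6 and 15.6 CPM in the controls. This was the 1 Hox gene with all knockouts below all controls, by a log2 fold change of -0.19 (SE 0.09, adjusted p = 0.685).

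The remaining genes of this range did not separate the groups. Hoxd8 was at 50.8, 50.4 and 54.0 CPM in the knockouts and 50.1, 48.3 and 53.3 CPM in the controls, and was the steadiest Hox gene, with the highest library 1.12 times the lowest (log2 fold change 0.03, SE 0.07, adjusted p = 0.935). Hoxa7 was at 17.0, 22.8 and 21.6 CPM in the knockouts and 18.1, 18.2 and 19.3 CPM in the controls. Knockout 1 lay below the controls and the other 2 knockouts above them (log2 fold change 0.14, SE 0.12, adjusted p = 0.829). Hoxb8, with the miR-196 site shown above, was at 21.2, 30.0 and 28.7 CPM in the knockouts and 22.5, 24.0 and 28.0 CPM in the controls. Its groups overlapped (log2 fold change 0.10, SE 0.15, adjusted p = 0.906). Hoxa5, known for its part in lung and neck development, was at 13.2, 15.4 and 15.3 CPM in the knockouts and 11.99, 13.4 and 14.1 CPM in the controls. There too the groups overlapped (log2 fold change 0.15, SE 0.11, adjusted p = 0.799).

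**Figure D2:**
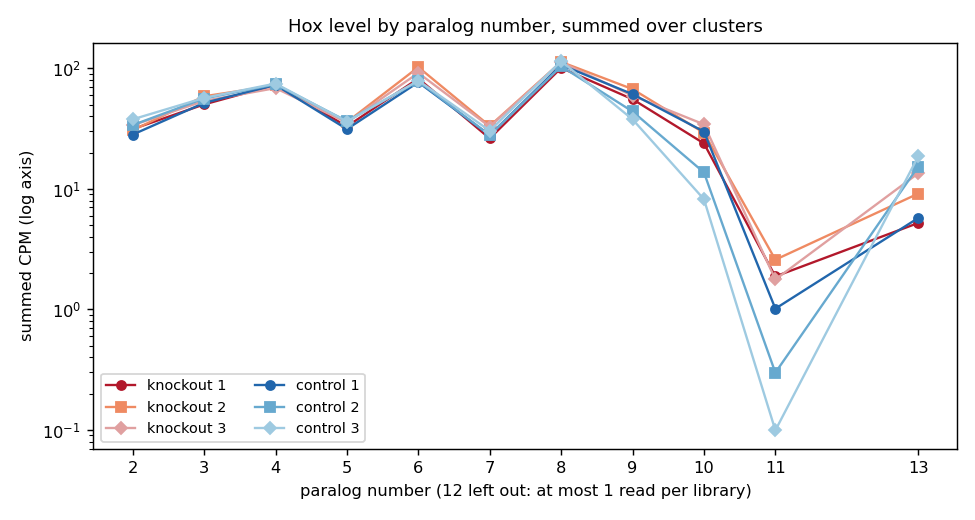
Summed TMM-scaled CPM of the genes of each paralog number over the 4 clusters (log axis), with 1 line per library, red tones for knockout and blue for control. The plot starts at paralog 2, and the lines run together up to paralog 8. At paralog 10 controls 2 and 3 (13.7 and 8.20 CPM) fall below control 1 and the 3 knockouts (between 23.8 and 34.3 CPM), and at paralog 13 knockout 1 and control 1 are lowest.

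From paralog 9 on, the libraries differed more from each other. The median ratio of highest to lowest library was 2.91 for the tested genes of paralogs 9 to 13. It was 1.31 for paralogs 1 to 4 and 1.34 for paralogs 5 to 8. Some genes of lower number also differed between controls. Hoxb6 was at 8.39, 11.6 and 14.4 CPM in controls 1, 2 and 3, a ratio of 1.71, compared with 1.69 for Hoxa9. The genes of paralogs 9 and 10 of clusters a, b and c were high in the 3 knockouts and in control 1 and lower in controls 2 and 3, and paralog 11 had control 1 between the knockouts and the other controls. Paralog 9 sums were 55.4, 67.2 and 59.3 CPM in the knockouts and 61.0, 43.8 and 37.7 CPM in the controls. Paralog 10 sums were 23.8, 29.2 and 34.3 CPM in the knockouts and 29.8, 13.7 and 8.20 CPM in the controls. In these sums control 1 lay within the range of the knockouts, and the other 2 controls lay below it. Paralog 11 sums were 1.88, 2.58 and 1.77 CPM in the knockouts and 1.01, 0.299 and 0.0992 CPM in the controls, so that control 1 was below all knockouts there. Paralogs 9 to 13 together made up 17.4, 19.1 and 19.7% of the Hox total in the knockouts and 19.4, 14.8 and 12.7% in the controls. Of the 9 tested genes of paralogs 9 to 13, 6 were above 0 and 3 below, with a median log2 fold change of 0.44, which was 0.239 without control 3, 0.293 without knockout 2 and 0.794 without control 1. The 9 tested are the genes that passed the filter and not the whole range, which holds 16. With no filter, 15 genes were fitted and the median was 0.681. The genes this added were near the floor, with between 1 and 37.1 reads in total over the 6 libraries. Their log2 fold changes ran from -1.87 (Hoxc12, 1 read in total) to 3.55 (Hoxb13, 4 reads in total).

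Hoxc10, a gene of the lumbar region and the hindlimb, varied most between the controls. It was at 12.5, 17.0 and 18.7 CPM in the knockouts and 16.4, 6.09 and 1.23 CPM in the controls. Control 1 was as high as the knockouts, and control 3 was lower than any other library. The highest control was 13.3 times the lowest, a ratio reached by 0.148% of the 14227 genes with at least 1 CPM in the controls, for which the median ratio was 1.18. Between the knockouts the ratio was 1.499, reached by 14.5% of genes. The log2 fold change was 1.02 (SE 0.78, adjusted p = 0.816), and it ranged from 0.50 without control 3 to 2.13 without control 1.

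Hoxa10, of the same paralog group, was at 8.56, 9.27 and 11.4 CPM in the knockouts and 9.92, 3.27 and 3.31 CPM in the controls. Control 1 again lay among the knockouts, and controls 2 and 3 were alike and lower. Its ratio of highest to lowest control, 3.03, was reached by 1.08% of genes. The log2 fold change was 0.83 (SE 0.45, adjusted p = 0.731), from 0.55 without control 2 to 1.57 without control 1.

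Hoxa11, which patterns the middle segment of the limb and the kidney, was at 1.13, 1.83 and 1.37 CPM in the knockouts and 0.592, 0.149 and 0.049 CPM in the controls. All 3 knockouts were above all 3 controls, at low depth, with 22, 37 and 28 reads against 12, 3 and 1. The ratio of pooled reads was 5.5 (95% exact interval 3.21 to 10.1, counting error only). The log2 fold change of 2.43 (SE 0.63, unadjusted p = 0.006) did not pass the adjustment (adjusted p = 0.335). It ranged from 1.94 without control 3 to 3.79 without control 1. Hoxa11 passed the filter for low counts through the knockouts, where it is high, so its p and its place among the 3 genes above give no independent support.

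Paralog 9 showed the same order of libraries in clusters a, b and c. Hoxb9, a gene of the chest region, was at 20.7, 23.9 and 20.6 CPM in the knockouts and 19.3, 12.9 and 8.22 CPM in the controls. The groups did not overlap, although control 1 came close to the knockouts (log2 fold change 0.69, SE 0.29, adjusted p = 0.671; 0.43 without control 3 and 1.04 without control 1). Hoxa9 was at 14.6, 17.1 and 14.7 CPM in the knockouts and 15.2, 11.5 and 9.03 CPM in the controls, and Hoxc9 at 8.04, 11.4 and 8.39 against 9.87, 5.75 and 4.94 CPM. In both, control 1 lay within the knockouts and the other controls below them. The log2 fold changes were 0.37 for Hoxa9 (SE 0.19, adjusted p = 0.708) and 0.44 for Hoxc9 (SE 0.28, adjusted p = 0.774). Without control 3 they were 0.20 and 0.24, and without control 1 they were 0.59 and 0.79.

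Hoxd9 and Hoxd10 of cluster d did not have this order. Hoxd9 was at 12.01, 14.8 and 15.6 CPM in the knockouts and 16.5, 13.6 and 15.5 CPM in the controls. Hoxd10 was at 2.78, 2.93 and 4.12 CPM in the knockouts and 3.48, 4.31 and 3.65 CPM in the controls. In both genes the groups overlapped and the controls lay close together, with a highest control 1.21 and 1.24 times the lowest, ratios reached by 42.2% and 37.8% of genes. The log2 fold changes were -0.11 (SE 0.13, adjusted p = 0.889) and -0.22 (SE 0.21, adjusted p = 0.841). Hoxd11, at 0.639, 0.401 and 0.298 CPM in the knockouts and 0.323, 0.150 and 0.0499 CPM in the controls, did have control 1 within the knockouts and the other controls below, on at most 12.4 reads. The difference between clusters was not tested.

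**Figure D3:**
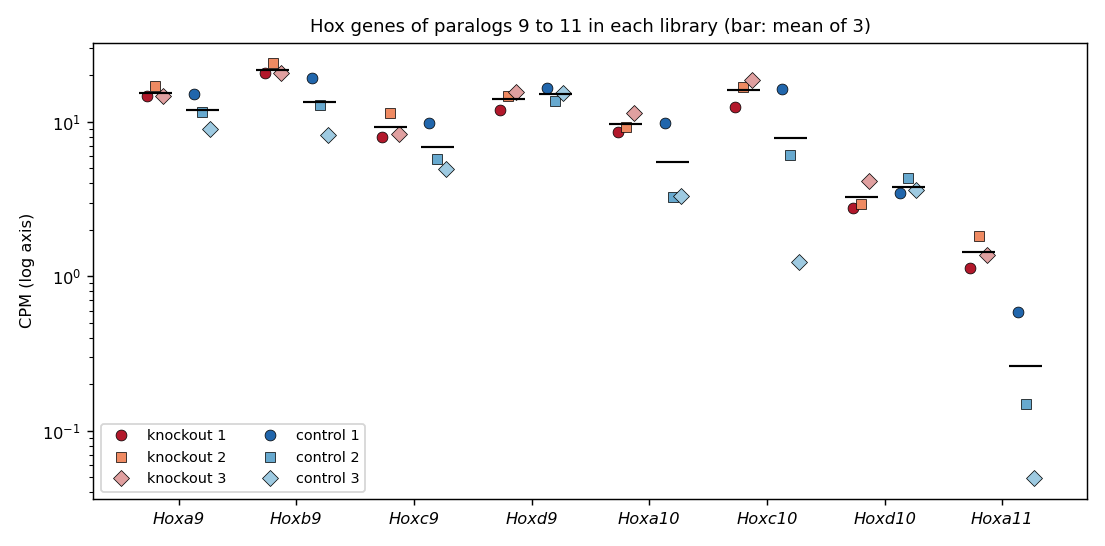
TMM-scaled CPM (log axis) of the 8 tested Hox genes of paralogs 9 to 11 in each library, with circles, squares and diamonds for replicates 1, 2 and 3, red tones for knockout, blue for control, and a bar at the mean of 3. Control 1 sits with the knockouts in Hoxa9, Hoxc9, Hoxa10 and Hoxc10, while controls 2 and 3 sit lower, and Hoxd9 and Hoxd10 show no such gap.

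Control 1 was the control in which these genes were high, and the counts changed when it was left out. Without control 1, 8 of 31 Hox genes (25.8%) had an unadjusted p under 0.05, compared with 8.59% of all genes. Of these, 7 were higher in knockout (Hoxa9, Hoxa10, Hoxa11, Hoxb9, Hoxc6, Hoxc9 and Hoxc10) and Hoxa4 was lower. None was called, and the smallest adjusted p was that of Hoxa10 (0.0703, edgeR). Knockout 1 and control 1, the libraries with low hair follicle genes, also differed most from the others over all genes. Without both of them, 2 Hox genes of 31 (6.45%) were called, both higher in knockout, as were 0.465% of all genes tested. They were Hoxa10, with a log2 fold change of 1.65 (SE 0.18, adjusted p = 0.00572), and Hoxa11, with 3.94 (SE 0.56, adjusted p = 0.0168), which again passed the filter through the knockouts (37 and 28 reads against 3 and 1). At an unadjusted p under 0.05 this comparison of 2 libraries with 2 held 9 Hox genes (29%), 8 higher and Hoxc13 lower, compared with 11.1% of all genes. Hoxc10 had a log2 fold change of 2.28 there (SE 0.84, adjusted p = 0.546), with controls 2 and 3 far apart. Leaving out control 1 removes the high control, so these values describe the other libraries only. Over all 16 ways of fitting, the adjusted p ranged from 0.00572 to 0.932 for Hoxa10 and from 0.0168 to 0.856 for Hoxa11.

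**Figure D4:**
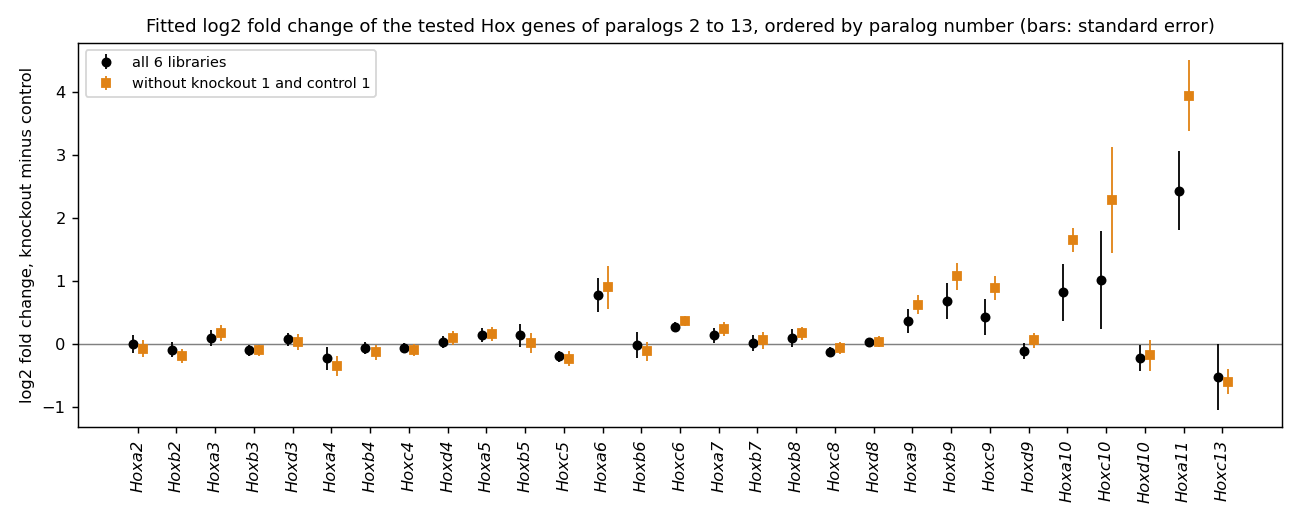
Fitted log2 fold change, knockout minus control, of the 29 tested Hox genes of paralogs 2 to 13 in order of paralog number, with bars of 1 standard error. Black circles use all 6 libraries and orange squares leave out knockout 1 and control 1. Apart from Hoxa6, paralogs 2 to 8 lie between -0.35 (Hoxa4) and 0.36 (Hoxc6) in both, with these 2 extremes without those libraries. Hoxa10, Hoxc10 and Hoxa11 move up to 1.65, 2.28 and 3.94 without them.

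The promoters of Hoxa10 and Hoxa11 are shown because these neighbouring genes were the ones called without knockout 1 and control 1. They are RefSeq sequences of GRCm38.p6 from 250 bases before to 50 bases after the transcription start, both on the minus strand, at chr6:52240805-52241104 for Hoxa10 (1 of 2 listed promoters) and chr6:52245761-52246060 for Hoxa11. Capitals mark matches to any of 4 motifs, searched on both strands.
Hoxa10 promoter: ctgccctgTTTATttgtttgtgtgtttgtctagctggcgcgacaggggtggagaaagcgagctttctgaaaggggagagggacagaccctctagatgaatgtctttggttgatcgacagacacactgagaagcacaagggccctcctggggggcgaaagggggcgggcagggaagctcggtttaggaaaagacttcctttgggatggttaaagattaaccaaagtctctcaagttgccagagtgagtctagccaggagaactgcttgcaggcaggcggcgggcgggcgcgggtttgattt
Hoxa11 promoter: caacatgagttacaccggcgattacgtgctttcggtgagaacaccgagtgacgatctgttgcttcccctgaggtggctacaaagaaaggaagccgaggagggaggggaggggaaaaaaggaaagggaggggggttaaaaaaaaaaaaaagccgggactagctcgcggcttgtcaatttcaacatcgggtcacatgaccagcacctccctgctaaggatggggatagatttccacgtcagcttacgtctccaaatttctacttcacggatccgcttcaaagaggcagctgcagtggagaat
The motifs were TTTATG, bound by CDX factors, TGATNNAT, bound by HOX with PBX, AGGTCA, a site of retinoic acid receptors, and TTTAT, the core bound by HOX proteins of high number, which is contained in TTTATG. Hoxa10 held 1 match to TTTAT, and these letters were not found in the Hoxa11 window. Of 32851 promoters of this length, 40.0% held TTTAT, 16.3% AGGTCA, 11.9% TTTATG and 8.85% TGATNNAT. Of the 24 Hox promoters listed, which belong to 22 genes, 9, 7, 5 and 4 held them in the same order.

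Hoxc13, the hair shaft regulator, did not follow the paralogs around it. It was at 5.15, 9.02 and 13.3 CPM in the knockouts and 5.62, 15.3 and 18.6 CPM in the controls. The lowest libraries were knockout 1 and control 1, and the groups overlapped (log2 fold change -0.52, SE 0.52, adjusted p = 0.851). The change ranged from -0.89 without knockout 3 to -0.19 without control 3, and was -0.60 without knockout 1 and control 1 (SE 0.20, adjusted p = 0.317). Of the 12 tested hair follicle markers, 8 had the same 2 libraries lowest of the 6, as did 3 of the 5 tested hair shaft keratins. This order was not particular to hair genes, and its count over all genes was not made. It was found in 3 of 5 cartilage and bone markers, 3 of 7 keratinocyte markers and 5 of 19 Polycomb and trithorax genes. It was also found in 4 of 13 face and head factors, but in 0 of 8 fibroblast and 0 of 8 muscle markers. Shh, the signal that drives follicle growth, was at 21.9, 34.8 and 41.2 CPM in the knockouts and 22.3, 38.2 and 45.0 CPM in the controls. Krt71, a keratin of the inner root sheath, was at 0.155, 11.2 and 21.9 CPM in the knockouts and 0.987, 11.2 and 45.0 CPM in the controls. Krt35, a hair shaft keratin, was at 0.405, 3.40 and 5.66 CPM in the knockouts and 0.843, 3.95 and 7.69 CPM in the controls. Gsdma, a gene of the skin epithelium, had the opposite order, at 186, 81.4 and 73.0 CPM in the knockouts and 94.4, 77.5 and 68.2 CPM in the controls, and the shaft keratin Krt34 was highest in knockout 1 (1.49 CPM). No gene of these lists was called, and the summed level of the shaft keratins was between 6.11 and 15.7 CPM in the knockouts and between 6.99 and 26.8 CPM in the controls. The part of the hair follicle genes in the level of Hoxc13 was not tested.

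**Figure D5:**
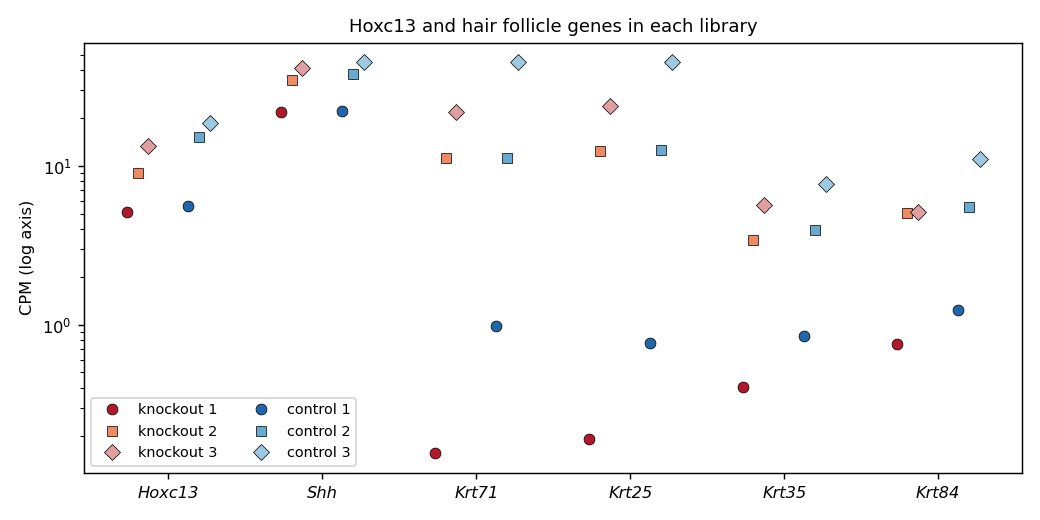
TMM-scaled CPM (log axis) of Hoxc13 and of 5 hair follicle and hair shaft genes in each library, with circles, squares and diamonds for replicates 1, 2 and 3, red tones for knockout and blue for control. Knockout 1 and control 1 are lowest in all 6 genes, down to 0.155 CPM for Krt71. Hair genes with another order, such as Gsdma and Krt34, are not plotted.

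Other genes of the Hox system were read from lists of cofactors, regulators and neighbours, and none of their members was called. All 9 TALE cofactors, the PBX, MEIS and PKNOX proteins that bind DNA together with HOX proteins, were tested, with 6 above 0 and a median log2 fold change of 0.06. Pbx2 had a log2 fold change of -0.07 (adjusted p = 0.796). Of the upstream regulators of Hox activation, the CDX factors, GDF11, NR6A1 and the retinoic acid genes, 7 of 12 were tested and had a median of 0.03. Among them Aldh1a2, which makes retinoic acid, had a log2 fold change of -0.48 (adjusted p = 0.816) and Cyp26b1, which degrades it, 0.14 (adjusted p = 0.846). The 19 Polycomb and trithorax genes, which hold Hox genes silent or active, had a median of -0.01. The smallest p values there were those of Eed (-0.12, adjusted p = 0.730) and Ezh2 (-0.15, adjusted p = 0.777). Of 13 genes that flank the clusters, 9 were tested, with 3 above 0 and a median of -0.07. Skap1, a flank of cluster b, had a log2 fold change of -0.67 (adjusted p = 0.706), and Calcoco1, a flank of cluster c, 0.19 (adjusted p = 0.717).

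Factors that mark body regions by other means were measured beside the Hox genes. Of 18 limb and trunk factors, 15 were tested, with 9 above 0, a median of 0.10 and none called. Pitx1, which specifies the hindlimb, was at 3.04, 3.47 and 3.83 CPM in the knockouts and 2.76, 2.48 and 2.12 CPM in the controls. All knockouts lay above all controls (log2 fold change 0.49, SE 0.19, unadjusted p = 0.036, adjusted p = 0.617, edgeR). Hand2, a factor of the posterior limb bud and the heart, was at 2.42, 9.12 and 1.77 CPM in the knockouts and 1.83, 0.991 and 1.18 CPM in the controls, with knockout 2 far above the rest (log2 fold change 1.73, SE 0.68, adjusted p = 0.642). Among the controls, 12 of the 15 tested factors were highest in control 1 and 2, Lmx1b and Zic1, were lowest there. For 9 of the 15, control 1 was the highest control and knockout 1 also the highest knockout. The same counts over all genes were not made. Chosen after their values were seen, the forelimb factor Tbx5 and the trunk and girdle factor Emx2 are given as examples of the 12. Tbx5 was at 3.58, 2.04 and 1.49 CPM in the knockouts and 3.49, 0.447 and 1.07 CPM in the controls, and Emx2 at 8.51, 8.13 and 8.20 against 10.8, 5.75 and 4.30 CPM. In both, control 1 was well above controls 2 and 3, knockout 1 was the highest knockout, and neither was called (adjusted p = 0.903 and 0.889).

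Of 19 face and head factors, 13 were tested, with 6 above 0, a median log2 fold change of -0.23 and none called. Lhx6, a factor of the jaw and teeth, was at 2.12, 3.28 and 2.56 CPM in the knockouts and 11.3, 8.42 and 6.04 CPM in the controls. All knockouts lay below all controls (log2 fold change -1.69, SE 0.27, adjusted p = 0.087). The body site of the skin is not in the labels, and its part in the Hox values was not tested.

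Markers of other tissue were set beside the Hox values, and their part in them was not tested. Crabp1, a marker of the papillary and follicle-associated dermis, was at 145, 98.8 and 77.1 CPM in the knockouts and 128, 76.3 and 45.4 CPM in the controls, and was highest in library 1 of each group. Hoxc10 was highest in control 1 among the controls and lowest in knockout 1 among the knockouts. Of the 8 fibroblast markers, 7 were highest in control 1 among the controls, and 2 fell in the order of controls 1, 2 and 3. In 5 of the 8, control 1 was the highest control and knockout 1 the highest knockout. These counts were not made over all genes. The 8 skeletal muscle markers summed to between 8637 and 13980 CPM in the knockouts and between 10590 and 11330 CPM in the controls. The 8 neuron markers, of which 4 passed the filter, summed to between 22.9 and 31.5 CPM in the knockouts and between 27.9 and 30.6 CPM in the controls. All 4 had a log2 fold change below 0 (median -0.45) and none was called. Tubb3 and Prph had all knockouts below all controls, as did 6.78% of all genes tested. Prph was low, at no more than 0.839 CPM in any library. In Stmn2, the highest of the 4, the groups overlapped (log2 fold change -0.07). The 7 cartilage and bone markers summed to between 68.2 and 81.2 CPM in the knockouts and between 55.2 and 85.7 CPM in the controls, and none of the 5 tested was called, with Runx2, a bone factor, closest (log2 fold change 0.59, SE 0.09, adjusted p = 0.085).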

How the data were processed

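Total RNA of whole skin was extracted with Trizol, and libraries were made from oligo(dT)-purified mRNA, per the labels' protocols. The deposited values are estimated counts (expected read counts per gene), which the authors did not normalize, per the file headers and values: 31 to 31.9% of genes in a library had a value more than 0.001 from a whole number. Alignment and counting tools were RSEM 1.2.12, HISAT2 2.0.4 and Bowtie2 2.2.5 with the build GRCm38.p6, per the submitters' processing notes. Estimated counts were rounded, filtered with filterByExpr (minimum count 10), scaled by TMM and tested with edgeR 4.0.16 (R 4.3.3), by the robust quasi-likelihood F test with Benjamini-Hochberg adjustment over 15035 genes. SEs are those of the log2 fold change. The table-wide test was tested on simulated data, in which no library was set apart as knockout 1 and control 1 are here. Depth was between 19826856 and 20591164 reads per library, and intervals cover counting error only.

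The members, the lists of other genes and the alternatives were chosen with earlier results of these data known. Values in every library are given for Hox genes with an unadjusted p under 0.05, those of paralogs 9 to 13 whose mean reached 1 CPM in a group, the 2 highest by CPM in each cluster, and Hoxc13; of each list of regulators, neighbours or position factors, called members or else the 2 with the smallest p are named where they can be reported. Values of Hoxc5, Hoxd11, Tbx5, Emx2 and marker genes, chosen after they were seen, are given beside these. Some named items are not reported here, and plots start at paralog 2. Transcript lengths and 3′ untranslated regions came from the longest GENCODE transcripts. DESeq2 1.42.0, limma 3.58.1 (voom), other scalings and filters, the replicate number as a block and leaving out libraries were the alternatives.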

Additional observations from a re-analysis of the deposited data

How the results depend on the processing

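No Hox gene was called under any alternative that kept all 6 libraries, nor when any 1 library was left out; the range with libraries left out was 0 to 2, and the 2 were Hoxa10 and Hoxa11 without knockout 1 and control 1. The number of all genes called, 24, was 38 without a filter, 210 with DESeq2, 15 with limma-voom and 52 with the replicate number as a block, and ranged from 1 to 139 with libraries left out; the cause was not tested. The Hox genes at an unadjusted p under 0.05, 3 with all libraries, were 5 with limma-voom, 5 with the block, 8 without control 1 and 9 without knockout 1 and control 1. Over all genes the counts were 1116 with all libraries, then 1119, 1568, 1305 and 1676 in the same order, of 15035 to 15184 tested. With the block, 4 of the 5 were higher in knockout and Hoxc13 was lower. With 1 library left out, the log2 fold change crossed 0 for 9 Hox genes, all between -0.187 and 0.229: Hoxa2, Hoxa3, Hoxb2, Hoxb5, Hoxb6, Hoxb7, Hoxd1, Hoxd4 (-0.0166 to 0.102) and Hoxd8 (-0.0068 to 0.0661). Hoxd9 crossed it without knockout 1 and control 1 (-0.189 to 0.0611). Deviations of same-numbered libraries from their group means correlated with r = 0.411, 0.0431 and 0.266, so the numbers were not taken to pair the libraries; not every library correlated best with its own number. With the block no Hox gene was called. Upper-quartile scaling moved the median of all genes to -0.03 and left 17 Hox genes above 0. The order of levels without length scaling kept 8 of the 10 highest genes. Depth limits the 8 untested genes, Hoxa6 and Hoxa11.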
